A study of Mus musculus with 13 samples.

Results

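The 9 genes described here encode the enzymes that make melanin and the membrane and matrix proteins of the melanosome: Tyr, Tyrp1, Dct, Pmel, Mlana, Oca2, Slc45a2, Slc24a5 and Gpr143. They were chosen by name, and each of the 9 symbols matched 1 of the 22656 gene identifiers measured. RNA came from mouse melanoma cells of the line B16F10-TR-shApoe, a derivative of B16F10 that carries a short hairpin directed at Apoe. All hosts received 100000 of these cells through the tail vein, and lungs were collected on day 15. Hosts were APOE2 knock-in mice (8 libraries) or APOE3 knock-in mice (5 libraries), so the hairpin was common to both groups and the host allele was the labelled difference. The model rests on 1 injected line, and the age and sex of the hosts are not given in the sources used here. Living cells with GFP and without the leukocyte antigen CD45 were sorted from digested lung. The QuantSeq forward kit reads the end of each transcript next to its poly(A) tail.

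Melanin is made inside melanosomes, lysosome-related organelles of pigment cells. Tyrosinase (Tyr) carries out the rate-limiting oxidation of tyrosine, dopachrome tautomerase (Dct) converts dopachrome to a carboxylated indole, and Tyrp1 acts on that indole and stabilises tyrosinase. Pmel forms the fibrils on which melanin is laid down, Mlana assists Pmel, and Oca2, Slc45a2 and Slc24a5 are transport proteins that set the ionic conditions of the organelle. Gpr143 is a receptor of the melanosome membrane that limits melanosome growth. Many of these genes are known targets of the transcription factor MITF, which binds the E-box CATGTG.

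Because these genes are thought to share MITF as a regulator, the promoters of the enzymes are shown before their values. RefSeq windows on GRCm38.p6, from 250 bases before to 50 after the transcription start, matched 5 of the 9 genes (Tyr, Tyrp1, Dct, Oca2 and Slc24a5). Pmel, Mlana, Slc45a2 and Gpr143 were not matched. The letters CATGTG, searched on both strands, were found in 5 of these 5 windows and in 14.2% of all 32851 windows. The longer TCATGTG, which contains CATGTG, was found in 4 of the 5 and in 3.77% of all windows. The longest stretch that the windows of Tyr, Tyrp1 and Dct had in common was GTCATGTGCT, of 10 letters, which contains both shorter motifs. It was found in 3 of the 5 windows and in 0.186% of all windows. The stretch was taken from the windows of Tyr, Tyrp1 and Dct, so a count of at least 3 was fixed in advance. A match is a description of letters and not of a bound site. In the 30-base stretches below, written 5′ to 3′ on the strand of the gene, capitals mark TCATGTG or its reverse complement, and in Oca2 the reverse complement of CATGTG.
Tyr, chr7:87493516-87493545, minus strand: gaaaaagttagTCATGTGctttgcagaaga
Tyrp1, chr4:80834155-80834184, plus strand: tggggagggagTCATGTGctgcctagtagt
Dct, chr14:118052379-118052408, minus strand: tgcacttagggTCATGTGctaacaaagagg
Slc24a5, chr2:125068103-125068132, plus strand: aggagactgctCACATGAttcagcataagt
Oca2, chr7:56239561-56239590, plus strand: ttgagcttgctaCACATGgctggaattttc

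Counted from the RefSeq start, TCATGTG began at position −22 in Tyr, −47 in Tyrp1 and −151 in Dct. The Dct window also held its reverse complement, from −232 to −226. The stretches of Tyr, Dct and Oca2 lie upstream of the gene in GENCODE M21. That of Tyrp1 lies inside the annotated gene, whose span begins at chr4 position 80834123, and that of Slc24a5 crosses the annotated start at chr2 position 125068124. The Dct promoter is given in full up to its start, since Dct had the largest difference between hosts, and the Tyr promoter beside it for comparison. Capitals mark CATGTG or its reverse complement, which occurs 2 times in the Dct sequence and 1 time in that of Tyr.
Dct, chr14:118052247-118052496, minus strand: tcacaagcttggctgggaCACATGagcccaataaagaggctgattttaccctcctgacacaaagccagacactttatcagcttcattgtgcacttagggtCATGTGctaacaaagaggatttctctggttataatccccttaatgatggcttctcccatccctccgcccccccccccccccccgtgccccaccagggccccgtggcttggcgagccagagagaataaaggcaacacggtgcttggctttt
Tyr, chr7:87493513-87493762, minus strand: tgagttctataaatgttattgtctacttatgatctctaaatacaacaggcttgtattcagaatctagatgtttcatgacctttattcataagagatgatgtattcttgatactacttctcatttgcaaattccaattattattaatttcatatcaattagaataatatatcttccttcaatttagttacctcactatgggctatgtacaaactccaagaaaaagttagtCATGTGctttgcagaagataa

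Recovered reads, the whole reads that the deposited values stand for, ranged from 7080308 to 13039989 per library. The label of melanoma cells was checked against melanocyte markers outside the 9 genes. Mitf, Sox10, Pax3, S100b, Mc1r, Tfap2a and Kit had reads in every library, and Ednrb was at 0 in 4 libraries. Summed over these 8 genes, APOE2 libraries had 21517 to 26655 and APOE3 libraries 21155 to 36928 normalised counts. Marker genes of other cells that could be tested were compared by limma at an adjusted p under 0.05. Lower in APOE2 hosts were 6 of 13 from lung epithelium and 2 of 12 from endothelium. So were 1 of 8 from fibroblasts and smooth muscle and 2 of 8 from leukocytes. None was higher, and 0 of 3 erythroid genes were called. Over all genes tested, 0.790% were called in either direction. The 6 from lung epithelium were Sftpc, Sftpb, Sftpa1, Sftpd, Napsa and Slc34a2. In that list Foxj1 (log2 difference 1.44) and Scgb3a2 (1.99, at 0 in 10 libraries) had estimates above 0, and the other tested genes were below 0. For Scgb1a1 (−1.56, at 0 in 2 libraries) the means went the other way. They were 157 normalised counts in APOE2, where the highest library had 1065, and 29.5 in APOE3. The 15 lung-epithelium genes summed to between 821 and 4204 normalised counts in APOE2 libraries and to between 3575 and 21481 in APOE3 libraries. The 21 leukocyte genes summed to 508 to 2573 and to 2158 to 12436, of which Lyz2 alone gave 36.5% to 90.0% and 69.8% to 95.6%. Lyz2 and Cd74, the 2 leukocyte genes called, are also made by alveolar type 2 cells of the lung epithelium. The other 19 leukocyte genes summed to 205 to 762 in APOE2 (median 308) and to 319 to 583 in APOE3 (median 459). These ranges overlapped, and none of the 6 of them tested was called. The 6 had log2 differences of −0.035 (S100a8), 0.50 (S100a9), −0.18 (Fcer1g), −0.41 (Cd68), −0.95 (Tyrobp) and −1.05 (Laptm5). Ptprc, which encodes CD45, the antigen sorted against, averaged 6.90 and 14.0 normalised counts. The 14 endothelial genes summed to 510 to 749 and to 677 to 1896, and the 13 fibroblast genes to 155 to 489 and to 313 to 1971. No gene of the lung-epithelium, leukocyte, endothelial and fibroblast lists was at 0 in every library. In bulk RNA, fewer cells of a type and less RNA per cell cannot be told apart.

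None of the 9 pigment genes passed the test between hosts. By limma, 0 of 9 had a Benjamini-Hochberg adjusted p under 0.05 over all 12403 genes tested, where 98 genes (0.790%) passed, 51 higher and 47 lower in APOE2. Scaling each library to the same total instead, the genes that passed were 38 higher and 54 lower. At an unadjusted p under 0.05 there was 1 of 9, Dct, against 14.2% of all genes. Dct was also the 1 member called by edgeR, where 1.11% of genes were called, and by DESeq2, where 2.51% were. The ranges of the 2 groups overlapped for all 9 genes, whereas they did not overlap for 0.984% of the genes tested. The median log2 difference of the 9 genes was 0.097, beside 0.00037 over all genes tested. The estimate was above 0 for 8 of the 9, beside 50.1% of all genes. That count was 6 with equal library totals and 9 with TMM scaling.

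**Figure D1:**
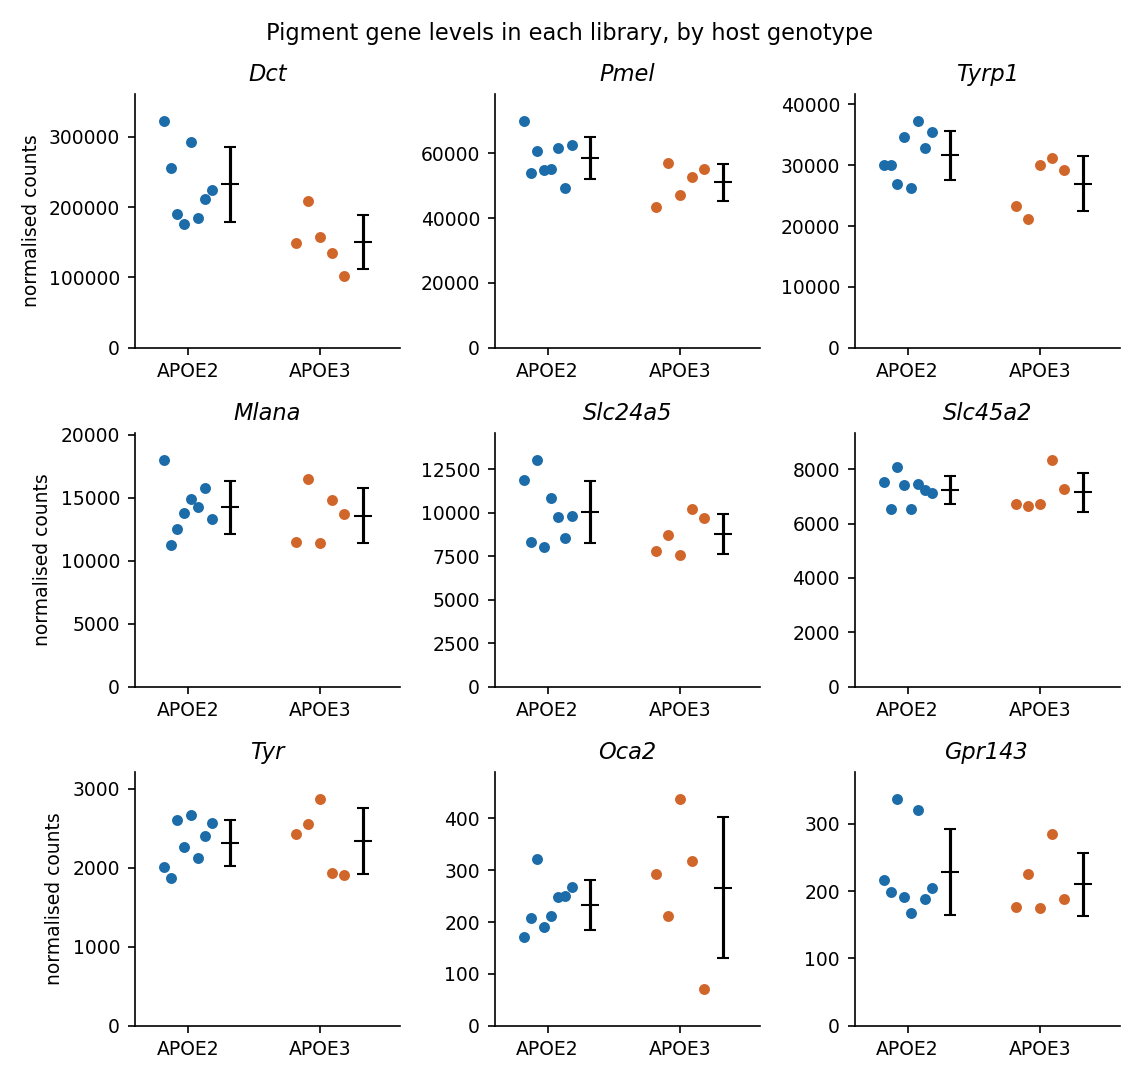
Normalised counts of the 9 pigment genes (vertical axes, each from 0) in every library, as points in replicate order, with the mean and SD of each host genotype beside them in black (APOE2, n = 8, blue; APOE3, n = 5, orange). The ranges of the 2 genotypes overlap in every panel, and Dct has 4 of 5 APOE3 libraries below every APOE2 library.

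Dct (ENSMUSG00000022129, chr14:118012790-118052244) stood at the top of the family. Gene positions here and below are on GRCm38, which is mm10, from GENCODE M21. In APOE2 hosts it had a lowest value of 176606, a median of 218146 and a highest of 323071 normalised counts. In APOE3 hosts replicates 1 to 5 had 149718, 208301, 157842, 134600 and 101484. The 5 highest Dct libraries were all from APOE2 hosts, and 4 of the 5 APOE3 libraries lay below every APOE2 library. APOE3 replicate 2 was the exception and lay inside the APOE2 range. The group means were 232522 ± 53539 (SD, n = 8) and 150389 ± 38893 (SD, n = 5), a ratio of 1.55.

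The log2 difference of Dct was 0.64 ± 0.19 (SE), with a 95% interval from 0.24 to 1.03, and 8 of 8 APOE2 libraries lay above the mean log2 value of the APOE3 group. Its limma p was 0.00304, and 0.126 after adjustment over all genes. The exact permutation test, two-sided and over the 1287 ways to divide the libraries into 8 and 5, gave p = 0.00699, and 0.197 after the same adjustment. This test can give no p under 0.00078, and its smallest adjusted p over all genes was 0.118. The adjusted p was 0.0467 by edgeR's quasi-likelihood test and 0.00796 by DESeq2, both on recovered reads, with log2 differences of 0.64 and 0.63. Without APOE3 replicate 2 the limma log2 difference was 0.76 and the adjusted p 0.0471. Leaving out any other single library gave a limma adjusted p from 0.109 (APOE2 replicate 6) to 0.226 (APOE3 replicate 4). The smallest of these estimates was 0.50, without APOE3 replicate 5. Over all alternatives tried the adjusted p ran from 0.00796 to 0.463. The upper value came from a fit that also held the mean of the lung-epithelium markers, where the log2 difference was 0.72. The part of other cells' RNA in the Dct difference was not tested beyond that fit.

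**Figure D2:**
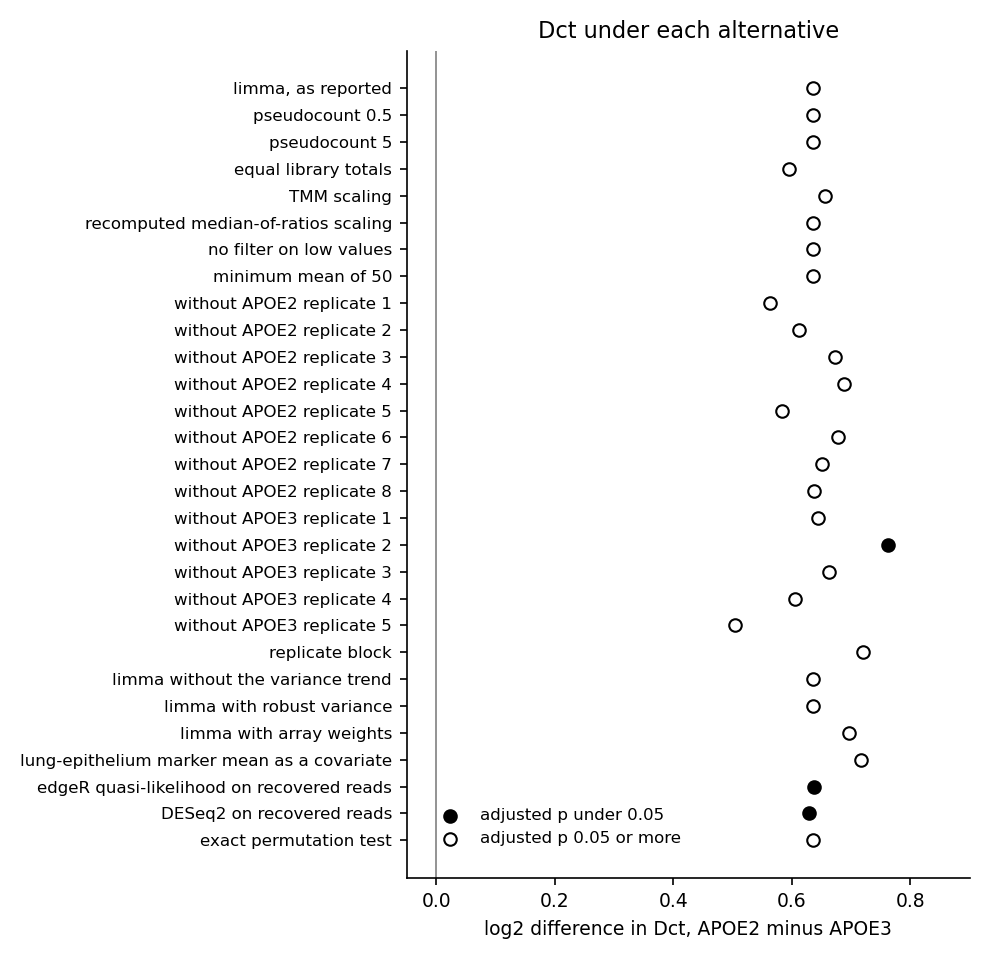
Log2 difference in Dct between APOE2 and APOE3 hosts (horizontal axis) under the reported fit and each alternative (vertical axis), filled where the adjusted p was under 0.05. The estimates lie between 0.50 and 0.76, and 3 of the points are filled (edgeR, DESeq2, and limma without APOE3 replicate 2).

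Tyrp1 (ENSMUSG00000005994, chr4:80834123-80851719) followed Dct among the enzymes in the size of its difference. Its APOE2 libraries ran from 26203 through a median of 31466 to 37325 normalised counts, and the APOE3 libraries had 23250, 21140, 30095, 31233 and 29235. APOE3 replicates 1 and 2 were the lowest of all 13, and the other 3 APOE3 libraries lay inside the APOE2 range. The log2 difference was 0.24 ± 0.13 (SE), its 95% interval ran from −0.029 to 0.51, and the limma adjusted p was 0.410.

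Tyr (ENSMUSG00000004651, chr7:87424771-87493512) had mean normalised counts of 2312 ± 295 (SD, n = 8) with APOE2 and 2336 ± 416 (SD, n = 5) with APOE3. Its APOE2 libraries ran from 1866 through a median of 2333 to 2667, and the APOE3 libraries had 2421, 2552, 2871, 1933 and 1901. The ranges overlapped over most of their length, with the lowest library from an APOE2 host and the highest from an APOE3 host. The log2 difference was −0.0065, with a 95% interval from −0.26 to 0.24, and its sign changed with TMM scaling (0.014).

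A ratio of 2 genes within a library does not depend on how that library was scaled. Dct had from 4.95 through a median of 6.76 to 11.2 reads per read of Tyrp1 in APOE2 hosts, and 6.44, 9.85, 5.24, 4.31 and 3.47 in APOE3 replicates 1 to 5. On the log2 scale this ratio was 2.85 ± 0.45 (SD, n = 8) and 2.46 ± 0.58 (SD, n = 5), a difference smaller than either SD, and the groups overlapped. Dct per read of Tyr showed a wider gap, with a range of 73.3 to 160 and a median of 87.8 in APOE2, and a range of 53.4 to 81.6 in APOE3. For that ratio 6 of the 8 APOE2 libraries lay above every APOE3 library. Tyrp1 per read of Tyr was 14.0 ± 2.70 and 12.0 ± 3.56 (SD). No test was applied to these ratios.

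The matrix genes came next. Pmel (ENSMUSG00000025359, chr10:128704195-128720238), the fibril protein, ran from 49354 through a median of 57899 to 70028 normalised counts in APOE2 hosts. The APOE3 libraries had 43422, 56912, 47035, 52817 and 54982. APOE3 replicates 1 and 3 were the lowest of all libraries and APOE2 replicate 1 the highest. The log2 difference was 0.20 ± 0.13 (SE; limma adjusted p = 0.499). Exons of Pmel overlap those of Cdk2 and Dgka on the opposite strand, and the strand setting of the counting is not given in the sources used here. Mlana (ENSMUSG00000024806, chr19:29697824-29708634) ran from 11231 to 18033 in APOE2 and from 11408 to 16511 in APOE3, and its log2 difference was 0.069 (limma adjusted p = 0.848).

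Among the transport proteins, Slc24a5 (ENSMUSG00000035183, chr2:125068124-125088677), an exchanger of sodium, calcium and potassium, had the largest of the 3 estimates. It ran from 8030 to 13058 normalised counts in APOE2 and from 7573 to 10204 in APOE3, and the log2 difference was 0.18 ± 0.13 (SE; limma adjusted p = 0.535). Its exons overlap those of Myef2 on the opposite strand. Slc45a2 (ENSMUSG00000022243, chr15:11000721-11029233), a sugar and proton transporter homologue tied to melanosome pH, had the lowest coefficient of variation of the 9 in both groups. Its APOE2 libraries ran from 6523 through a median of 7312 to 8089 normalised counts, and the APOE3 libraries had 6737, 6662, 6737, 8350 and 7256. The 95% interval of its log2 difference, −0.18 to 0.22, was the narrowest of the 9.

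Oca2 (ENSMUSG00000030450, chr7:56239760-56536518), a melanosomal chloride transport protein, varied widely among the APOE3 libraries. It ran from 171 through a median of 230 to 322 normalised counts in APOE2, and the APOE3 libraries had 293, 211, 438, 318 and 71.7. Both the highest and the lowest Oca2 library were from APOE3 hosts. The log2 difference was 0.0058 with a 95% interval from −0.59 to 0.60, and it was −0.41 without APOE3 replicate 5, which had the lowest value. Gpr143 (ENSMUSG00000025333, chrX:152781921-152808646) ran from 167 to 337 in APOE2 and from 175 to 285 in APOE3, with a log2 difference of 0.097 (limma adjusted p = 0.871).

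**Figure D3:**
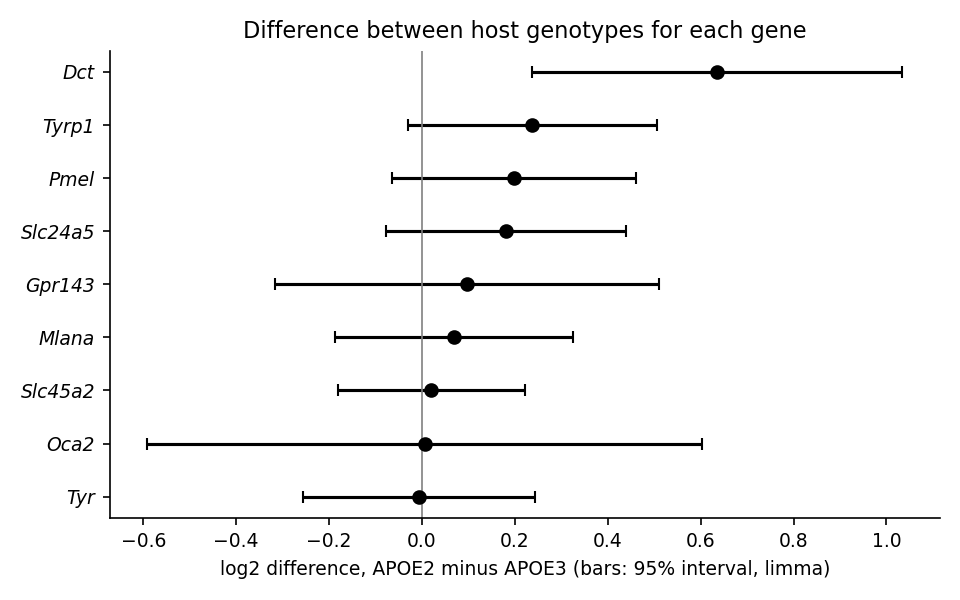
Log2 difference between APOE2 and APOE3 hosts for each gene (points, horizontal axis), with 95% intervals from limma as bars. The interval of Dct, from 0.24 to 1.03, is the 1 interval of the 9 that leaves out 0, without adjustment for the number of genes tested.

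Levels within the family spanned a wide range. Per kilobase of the longest coding transcript in GENCODE M21, the mean level over the 13 libraries was 91250 normalised counts for Dct, 26126 for Pmel, 15448 for Mlana, 10986 for Tyrp1, 4894 for Slc24a5, 2415 for Slc45a2, 384 for Tyr, 139 for Gpr143 and 78.6 for Oca2. Each gene exceeded the next in all 13 libraries, except that Gpr143 exceeded Oca2 in 12 of 13. Reads of this kit start near the poly(A) tail, so counts need not grow with transcript length. Without division by length, Tyrp1 (29881) came before Mlana (13996), and Oca2 (246) before Gpr143 (221). Tyrosinase, the rate-limiting enzyme, thus ranked behind 6 of the other members on both scales.

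The share of all reads that came from the 9 genes was 4.17% ± 0.56 (SD, n = 8) with APOE2 and 3.14% ± 0.37 (SD, n = 5) with APOE3. APOE2 libraries lay between 3.55% and 5.21% and APOE3 libraries between 2.67% and 3.69%, so 4 of the 5 APOE3 libraries lay below every APOE2 library. Wilson 95% intervals of these shares were at most 0.029 percentage points wide and cover counting error alone. Without Dct the shares were 1.46% ± 0.11 (SD, n = 8) and 1.33% ± 0.11 (SD, n = 5). The sums of lung-epithelium markers given above reached 4204 in APOE2 and 21481 in APOE3, and their part in these shares was not tested. Dct supplied 64.5% ± 5.18 and 57.0% ± 7.31 of the reads of the 9 genes (SD).

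**Figure D4:**
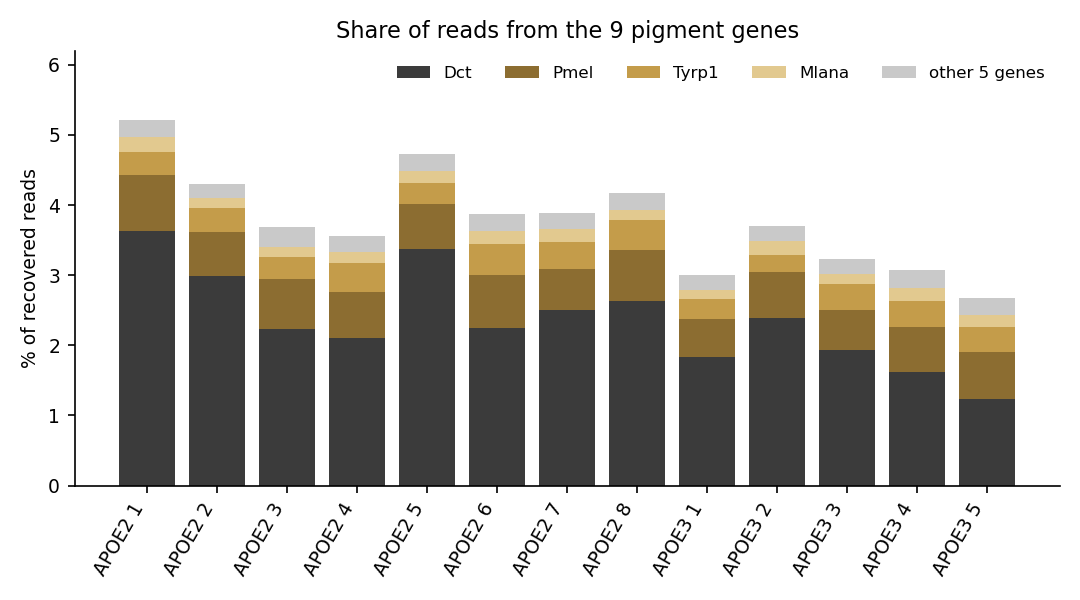
Share of recovered reads (vertical axis, percent) from Dct, Pmel, Tyrp1, Mlana and the other 5 genes, stacked for each library (horizontal axis). Totals run from 3.55% to 5.21% in APOE2 and from 2.67% to 3.69% in APOE3, and Dct is the largest block in every library.

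The members differed in how much they varied between libraries. The coefficient of variation ran from 7.18% for Slc45a2 to 28.1% for Gpr143 in APOE2 hosts, and from 9.97% for Slc45a2 to 51.0% for Oca2 in APOE3 hosts. For Dct it was 23.0% in APOE2 and 25.9% in APOE3. Among 1674 genes whose mean normalised count reached 1000, the pooled SD within genotypes on the log2 scale had a median of 0.21. Slc45a2, at 0.12, was above 3.46% of these genes, and Dct, at 0.34, was above 89.5% of them.

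The 9 genes did not vary as 1 block. Over the 13 libraries, with log2 values centred within genotype, the 36 pairs of members had a median Pearson r of 0.092, and 22 of the 36 were positive. Among the 9680 genes with a mean of at least 50, the median over all pairs was −0.0015 and 49.8% of pairs were positive. The lower and upper deciles of r over those pairs were −0.45 and 0.45. The libraries share their scaling and depth between genes, so these values are descriptions. The highest values were for Slc45a2 with Gpr143 (r = 0.73, Spearman rho = 0.64) and Pmel with Slc24a5 (r = 0.67, rho = 0.68). Without the 2 libraries farthest from the median of the first gene they were 0.42 and 0.61. Tyr had its highest value with Oca2 (r = 0.56, rho = 0.57), and 0.38 without such a pair of libraries.

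The lowest value of the 36 was between 2 enzymes. Tyrp1 and Dct had r = −0.60 and rho = −0.56 within genotypes, and r was −0.33 without the 2 libraries farthest from the Tyrp1 median. Without centring r was −0.0071. Dct and Slc45a2 had r = −0.49 and rho = −0.58, and −0.64 without the 2 farthest libraries for Dct. Pmel, Mlana, Slc24a5, Slc45a2 and Gpr143, a group picked after the values were seen, had positive r in all of their pairs, from 0.12 for Mlana with Gpr143 to 0.73.

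**Figure D5:**
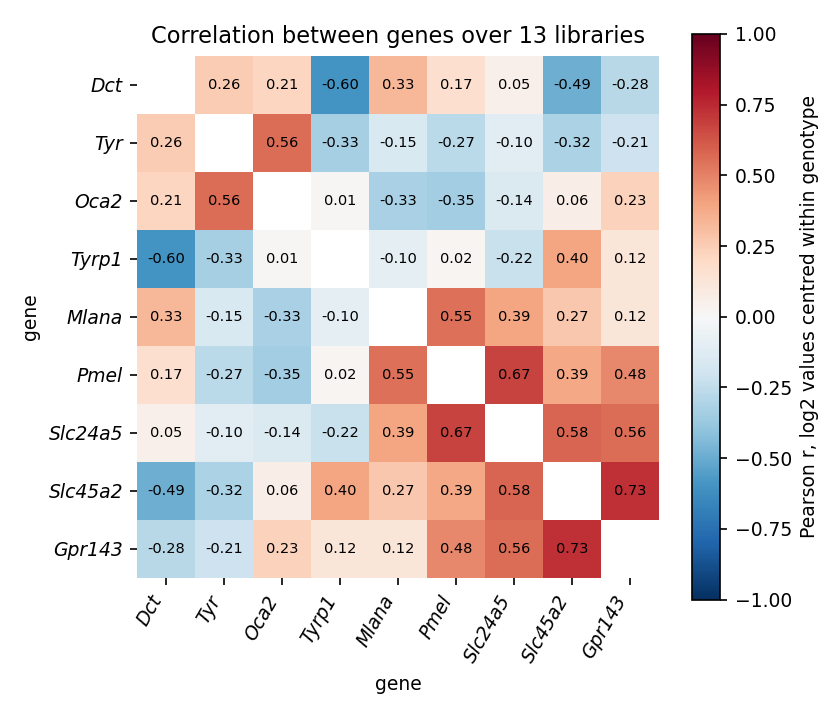
Pearson r between each pair of the 9 genes (both axes) over 13 libraries, with log2 values centred within genotype; red is positive and blue negative. Pmel, Mlana, Slc24a5, Slc45a2 and Gpr143 form a red square, and Dct with Tyrp1, at −0.60, is the deepest blue.

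Outside the 9, the genes with the highest mean r with the members were Srgap2 (0.39), Tprgl (0.39), Hist3h2a (0.38), Agtrap (0.37) and Tfip11 (0.37), over 13 libraries. They are the extremes of all genes with a mean of at least 50, and how high such extremes reach by chance was not tested. The mean r of a member with the other members ran from −0.087 (Tyrp1) to 0.22 (Slc24a5). For Srgap2, r with single members ran from 0.048 to 0.62. The lowest r with a member was −0.13 for Tprgl, −0.19 for Hist3h2a, −0.11 for Agtrap and −0.048 for Tfip11. The limma adjusted p-values of these 5 genes between hosts ran from 0.574 for Tprgl to 0.884 for Tfip11.

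The rest of the pigment machinery was read from 3 lists, whose counts at an unadjusted limma p under 0.05 stand beside 14.2% of all genes tested. Of 9 tested regulators and receptors (10 listed), 0 passed the threshold by limma, edgeR or DESeq2 and 1 had an unadjusted p under 0.05, with 3 estimates above 0 and 6 below and a median log2 difference of −0.014. Mitf itself had a mean of 8047 ± 846 with APOE2 (SD, n = 8) and 9216 ± 3986 with APOE3 (SD, n = 5), in normalised counts, a log2 difference of −0.11 (limma adjusted p = 0.819). The 3 with the smallest p were Ednrb (log2 difference −3.04, limma adjusted p = 0.160), Sox10 (−0.18, 0.469) and Usf1 (1.08, 0.678). Ednrb, the endothelin receptor of the lineage, is also made by endothelial cells. Its mean normalised count was 10.8 ± 14.8 with APOE2 (SD, n = 8) and 35.0 ± 13.1 with APOE3 (SD, n = 5). Usf1 was at 0 in 3 libraries and averaged 12.3 ± 9.58 and 8.99 ± 11.3 (SD). With libraries at 0, as in these 2 genes, the fitted log2 difference depends on the pseudocount and is larger than the means show.

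Of 13 other genes of the melanosome membrane, matrix processing and melanin chemistry, 0 passed by limma, edgeR or DESeq2 and 1 had an unadjusted limma p under 0.05, with a median log2 difference of 0.035. The 3 with the smallest p were Mcoln3 (0.67, adjusted p = 0.212), Atp7a (−0.25, 0.515), which delivers copper to tyrosinase, and Slc24a4 (0.65, 0.591). Of 25 trafficking genes, 0 passed by limma and 6 had an unadjusted p under 0.05 (all genes tested, 14.2%), with 13 estimates above 0 and 12 below and a median of 0.032. Bloc1s4, a subunit of the cargo-sorting complex BLOC-1, ran from 558 to 814 normalised counts in APOE2 and from 429 to 609 in APOE3, a log2 difference of 0.54 (limma adjusted p = 0.0520), and its adjusted p was 0.0408 by edgeR and 0.00659 by DESeq2. Rab27a, the small GTPase that tethers melanosomes to actin motors, had 1167 ± 149 and 852 ± 157 (SD), a log2 difference of 0.47 (limma adjusted p = 0.0925), and its adjusted p by DESeq2 was 0.0335. Mreg had 0.78 (0.250). Markers of the retinal pigment epithelium were read as a check on another pigment cell. Of 4 genes listed, Best1 was at 0 in 9 of 13 libraries and Rlbp1 had 117 to 755 normalised counts. Rpe65 and Rgr matched none of the 22656 gene identifiers measured.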

How the data were processed

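Per the submitters' processing notes, STAR 2.6.0, featureCounts and DESeq2 1.28.1 were used with the mm10 build. Annotation and strand setting are not given in the sources used here. The deposited values, in 13 columns of 1 table, are gene counts that the authors had divided by a size factor for each library (a signal unit). Every nonzero value was a whole multiple of its library's step (100% within 0.01 reads), which gave recovered reads. Identifiers were paired with symbols through GENCODE M21 (22649 of 22656). Values were transformed as log2(value + 1), so the differences of low genes depend on the added 1. The 12403 genes with a mean of at least 10 were fitted with limma 3.58.1 in R 4.3.3 with a variance trend, two-sided, with Benjamini-Hochberg adjustment over all of them and a threshold of 0.05. The edgeR 4.0.16 and DESeq2 1.42.0 tests on recovered reads were alternatives. The limma step was tested on simulated data. The members, lists and tests were chosen with earlier results of these data known. Named genes are the 9 members, in each other list those past the threshold or, where none passed, the 3 with the smallest p, and the 5 genes most correlated with the members among those with a mean of at least 50. Mitf, Best1 and Rlbp1 were named beside them to check the cell label.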

Additional observations from a re-analysis of the deposited data

How the results depend on the processing

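Of the 9 genes, Tyrp1, Pmel, Mlana, Slc24a5 and Gpr143 kept their direction in all 28 alternatives, with adjusted p-values of 0.05 or more. Dct kept its direction in all 28. Changes to the low-value filter, the variance trend or robust variance, and the exact permutation test, leave the estimate of a gene unchanged. Direction could not change in those alternatives. The number of the 9 past the threshold was 0, and 1 (Dct) by edgeR and by DESeq2; with 1 library left out it ran from 0 to 1. Estimates near 0 changed sign. With equal library totals Oca2 had −0.034 and Slc45a2 −0.020. TMM scaling gave 0.014 for Tyr. Oca2 had −0.27 with array weights, −0.23 with the lung-epithelium covariate, −0.19 by edgeR and −0.19 by DESeq2. With 1 library left out, Tyr ran from −0.076 to 0.073, Oca2 from −0.41 to 0.24 and Slc45a2 from −0.0037 to 0.078; the cause was not tested. The count over all genes, 98, was 9 without a filter on low values, 0 without the variance trend (1599 at an unadjusted p under 0.05), 2 with the lung-epithelium covariate, 311 by DESeq2, 204 at a threshold of 0.1, 0 by the exact permutation test (1712 at an unadjusted p under 0.05), and from 9 (without APOE3 replicate 3) to 228 (without APOE3 replicate 1) with 1 library left out. Replicate numbers shared between the groups did not pair the libraries. After the group mean of each gene was subtracted from its log2 values, same-numbered libraries correlated from −0.063 to 0.014. None of APOE2 replicates 1 to 5 correlated best with the APOE3 library of its own number. With the replicate block the count was 43, none of the 9 passed, Dct had 0.72 and Oca2 −0.085. The median correlation of the 9 genes ran from 0.016 to 0.16 with 1 library left out. That check of the correlations, and the exact permutation counts, were chosen after seeing the data. With 1287 divisions the exact test can give no p under 0.00078, and its smallest adjusted p over all genes was 0.118. Reads of Oca2 and Gpr143 were few enough that counting alone gives 6.4% to 7.3% variation.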

Other observations

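Each gene was also screened in each genotype for a library set apart from the others of its group by Dixon's criterion. In 18 such screens, where chance gives about 0.9, there was none.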
